A study of Homo sapiens with 5 samples.

Results

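The snoRNA host genes GAS5, SNHG1, SNHG5, SNHG6, SNHG8, SNHG12, SNHG15 and ZFAS1 and the nuclear long noncoding RNAs MALAT1 and NEAT1 were examined in HLF cells, a human hepatocellular carcinoma line. The 10 genes were taken by symbol from the tables of gene expression. All 10 were listed in each of the 3 tables, among 10976 genes that the tables share and 12468 that any of them holds. The genes were chosen with earlier results of these data known, so their presence in every table is not a finding. MALAT1 had the most reads of the 10, with an average of 846.2 CPM (read counts scaled to a common library size) in the USP28-Ctrl and USP28-KO cells and 430.1 CPM in the reconstituted cells. NEAT1 followed with 507.1 and 284.6 CPM. The hosts ranged from 21.3 CPM (SNHG15) to 157.5 CPM (ZFAS1) in the first average and from 15.7 CPM (SNHG5) to 135.6 CPM (ZFAS1) in the second. Per kilobase of the longest transcript the order was different, with ZFAS1 above MALAT1, and NEAT1 below 6 of the 8 hosts in both averages. That order depended on the length used, and with the median or the shortest transcript MALAT1 came first in both.

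The study compared cells that differ in USP28, a ubiquitin protease. USP28-Ctrl cells carried a control guide RNA (sgCtrl) and USP28-KO cells a guide against the gene (sgUsp28). The reconstituted series started from sgUsp28 cells and added the empty lentiviral vector (pRRL-Ctrl), wild type USP28 (pRRL-Usp28-WT, here USP28-WT) or a monomeric form (pRRL-Usp28-Mono, here USP28-M). No treatment is given for any group, all 5 groups were HLF cells, and 1 sample is listed for each. Knockout lines were picked as single clones after puromycin selection, and how many clones were sequenced is not given in the sources used here. The transgenes came from lentiviral vectors, not from the locus of the gene. USP28 itself averaged 5.15 log2 CPM over USP28-Ctrl and USP28-KO and 9.79 log2 CPM over the reconstituted series, which includes the transgene in 2 of its 3 groups.

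The values are averages that the authors' software made over the libraries of each of 2 fits, 1 of USP28-Ctrl with USP28-KO and 1 of USP28-KO with vector, USP28-WT and USP28-M. They hold no value for a single library or group, so replicate error is not known here, the 5 groups were not compared with each other and no test was run. The value of 1 read was estimated from the steps between the lowest genes. It was 0.130 CPM in the first fit, or about 7690000 reads behind its averages, and 0.0328 CPM in the second, or about 30500000 reads. Intervals of levels given below are exact 95% Poisson intervals on these reads. Intervals of the class ratios and of the differences between fits are 95% normal approximations from the same reads. All these intervals cover counting error only, and the spread between cultures is not in them.

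A snoRNA host is transcribed with small nucleolar RNAs in its introns. These are released from the introns after splicing and guide chemical modification of ribosomal and other RNAs, while the spliced host RNA of the genes studied here codes for no known stable protein. In GAS5 and several SNHG genes the host RNA starts with a run of pyrimidines (a 5′ terminal oligopyrimidine start, shared with ribosomal protein mRNAs), is taken up by ribosomes and is then degraded by nonsense-mediated decay. The turnover of such hosts therefore depends on translation. MALAT1 and NEAT1 are largely unspliced RNAs that stay in the nucleus. MALAT1 gathers in nuclear speckles, and NEAT1 is the scaffold of paraspeckles.

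The annotation bears out the host label. RefSeq places 32 small nucleolar RNAs within the 8 hosts and none within MALAT1 or NEAT1. GAS5 holds 11, SNHG1 holds 9, SNHG12 holds 4 and ZFAS1 holds 3 (SNORD12, SNORD12B and SNORD12C). SNHG5 holds 2, which are SNORD50A and SNORD50B. SNHG6 (SNORD87), SNHG8 (SNORA24) and SNHG15 (SNORA9) hold 1 each. MALAT1 holds the small RNA MASCRNA, which is cut from its 3′ end, and NEAT1 holds the microRNA gene MIR612. SNHG1, MALAT1 and NEAT1 lie on chromosome 11, GAS5 and SNHG12 on chromosome 1, and the others on chromosomes 6 (SNHG5), 8 (SNHG6), 4 (SNHG8), 7 (SNHG15) and 20 (ZFAS1).

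The first bases of the hosts are shown because a pyrimidine start is the sequence feature that ties host RNAs to translation. RefSeq promoter sequences (GRCh38.p14) matched 7 of the 10 genes, MALAT1 with 2 starts. Each line gives the 30 bases before the annotated start and the first 30 bases of the transcript, 5′ to 3′ on the gene's strand. Capitals mark the unbroken run of C and T from the first base of the transcript and, before the start, a TATAA motif.
SNHG12 (chr1:28581844-28581903, minus strand): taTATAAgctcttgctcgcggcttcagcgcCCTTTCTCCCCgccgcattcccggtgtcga
SNHG5 (chr6:85678704-85678763, minus strand): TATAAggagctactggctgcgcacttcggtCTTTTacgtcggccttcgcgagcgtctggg
ZFAS1 (chr20:49278612-49278671, plus strand): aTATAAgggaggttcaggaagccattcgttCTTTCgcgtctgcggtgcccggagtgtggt
SNHG1 (chr11:62855856-62855915, minus strand): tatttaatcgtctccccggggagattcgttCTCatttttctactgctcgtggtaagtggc
SNHG8 (chr4:118278732-118278791, plus strand): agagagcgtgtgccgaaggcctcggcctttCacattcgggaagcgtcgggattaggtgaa
GAS5 (chr1:173869016-173869075, minus strand): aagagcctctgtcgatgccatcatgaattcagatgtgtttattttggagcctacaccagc
MALAT1, start 1 (chr11:65497708-65497767, plus strand): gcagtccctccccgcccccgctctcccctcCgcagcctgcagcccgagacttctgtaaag
MALAT1, start 2 (chr11:65499015-65499074, plus strand): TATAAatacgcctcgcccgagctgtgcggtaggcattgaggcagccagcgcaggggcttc

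SNHG12 had the longest run at its first base, 11 pyrimidines, a length that 0.760% of the 35116 RefSeq promoters reach. SNHG5 and ZFAS1 had runs of 5, which 5.17% of promoters reach, and SNHG1 a run of 3, which 10.3% reach. A run of at least 5 was thus present in 3 of the 6 hosts with an entry. SNHG8 began with a single C, and GAS5 and start 2 of MALAT1 with a purine. The position of an annotated start decides such a run. The RefSeq start of GAS5 lies 163 bases upstream of the outermost GENCODE start, while those of SNHG1, ZFAS1 and SNHG12 lie 29, 464 and 1259 bases inside theirs. Within 20 bases on either side of the start the longest run was 12 in SNHG12, 7 in SNHG1 and ZFAS1, 6 in SNHG5 and SNHG8 and 4 in GAS5, beside a median of 5 over all promoters. MALAT1 had 11 and 4 at its starts.

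The motif TATAA, searched on the gene's strand as a whole between 40 and 15 bases before the start, was present in 4 of the 6 hosts. It began 28 bases before the start in SNHG12, 29 in ZFAS1, 30 in SNHG5 and 34 in SNHG8 (before the printed bases), and 30 bases before start 2 of MALAT1. The motif at this place was found in 3.91% of all promoters on the gene's strand and in 4.72% on either strand. CACGTG, the palindromic E-box that MYC and other factors recognise, was in none of the 8 sequences of 300 bases and in 7.26% of all promoters. GC content was above the median of 58.7% in SNHG5 (67.7%), SNHG12 (67.3%), SNHG8 (62.3%), ZFAS1 (62%), SNHG1 (60%) and MALAT1 start 1 (73.7%), and below it in GAS5 (37.7%) and MALAT1 start 2 (46%). A match to these letters is a description and not evidence of a bound site.

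The level of each host in reads was as follows. ZFAS1, the host of SNORD12 and its relatives, had 157.5 CPM (148.8 to 166.6) in the USP28-Ctrl and USP28-KO average, from about 1211 reads, and 135.6 CPM (131.5 to 139.8) in the reconstituted average, from about 4132 reads. SNHG1, the host of SNORD25 to SNORD31, had 122.5 CPM (114.8 to 130.5) and 68.6 CPM (65.7 to 71.6). GAS5, a host first described as growth arrest-specific, had 61.0 CPM (55.6 to 66.7) and 77.3 CPM (74.2 to 80.5). In the first average SNHG1 therefore had more reads than GAS5, and in the second GAS5 had more than SNHG1, each time with intervals that do not overlap.

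The other 5 hosts had fewer reads in most cases. SNHG6 had 59.3 CPM (53.9 to 65.0) over USP28-Ctrl and USP28-KO, with an interval that overlaps that of GAS5, and 23.4 CPM (21.7 to 25.2) over the reconstituted cells. SNHG12 had 37.2 CPM (33.0 to 41.7) and 18.2 CPM (16.8 to 19.8). SNHG5, whose host RNA carries the C/D box pair SNORD50A and SNORD50B, had 29.4 CPM (25.7 to 33.5) and 15.7 CPM (14.4 to 17.2).
SNHG8 and SNHG15 gave nearly the same values over USP28-Ctrl and USP28-KO, 21.7 CPM (18.5 to 25.2) and 21.3 CPM (18.2 to 24.8). Over the reconstituted cells SNHG8 had 21.4 CPM (19.8 to 23.1) and SNHG15 16.1 CPM (14.7 to 17.6). These hosts rest on about 167 and 164 reads in the first fit, the fewest of the 10 genes.

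MALAT1 had 846.2 CPM (825.8 to 867) from about 6508 reads in the first fit and 430.1 CPM (422.8 to 437.6) from about 13102 reads in the second. NEAT1 had 507.1 CPM (491.3 to 523.2) and 284.6 CPM (278.6 to 290.6). Both lay above every host on this scale in both averages. The difference from ZFAS1, the host with most reads, to NEAT1 was 1.69 on the log2 CPM scale in the first fit and 1.07 in the second, or 3.22-fold and 2.10-fold in reads.

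Among all genes, MALAT1 ranked 114th of 11102 in the first fit and 350th of 12342 in the second. NEAT1 ranked 262nd and 608th. The percentiles, which are the shares of genes with a lower average log2 CPM, were 99.0 and 97.2 for MALAT1 and 97.6 and 95.1 for NEAT1. ZFAS1 was at the percentiles 88.2 and 87.3, SNHG1 at 83.5 and 73.3 and GAS5 at 64.7 and 76.4. SNHG6 was at 63.9 and 42.9, SNHG12 at 47.0 and 36.4 and SNHG5 at 38.7 and 33.0. SNHG8 was at 29.5 and 40.4 and SNHG15 at 29.1 and 33.5. SNHG5, SNHG8, SNHG12 and SNHG15 were thus below the median gene both times. The 8 hosts averaged 5.63 log2 CPM with an SD of 1.09 across genes in the first fit and 5.07 with an SD of 1.22 in the second. Their medians were 5.55 and 4.48, against medians of 5.33 and 4.90 for all listed genes. The median host was thus above the median gene in the first fit and below it in the second. These SDs describe how the 8 genes differ among themselves and are no replicate error.

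**Figure D1:**
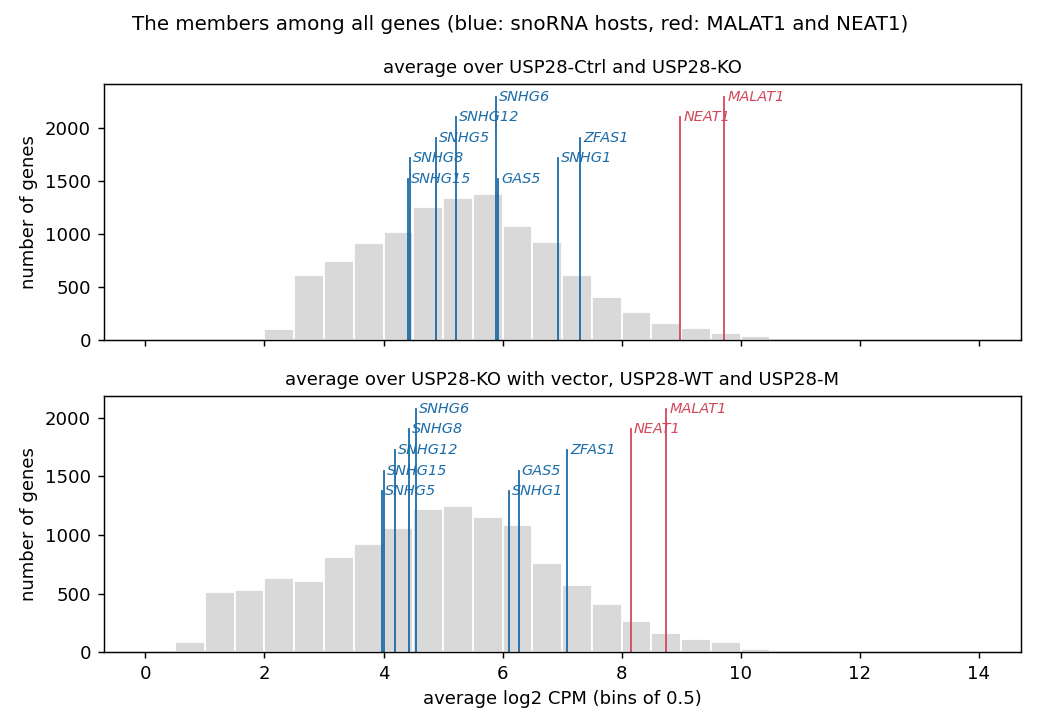
Number of genes (y axis) by average log2 CPM (x axis, bins of 0.5) in each fit, with the hosts as blue lines and MALAT1 and NEAT1 as red lines whose heights only separate the names. The hosts span the middle of the distribution, from 4.41 to 7.30 in the upper panel and from 3.98 to 7.08 in the lower, and MALAT1 and NEAT1 stand in its upper tail.

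Levels of genes of different length can be set side by side only per length, and this changed the picture for MALAT1 and NEAT1. The longest GENCODE transcripts are 8708 bases in MALAT1 and 22743 bases in NEAT1, against 648 bases (SNHG6) to 3116 bases (SNHG15) in the hosts. Per kilobase of the longest transcript, ZFAS1 came first in the USP28-Ctrl and USP28-KO average with 146.5 CPM per kilobase (138.4 to 155). MALAT1 (97.2 CPM per kilobase, 94.8 to 99.6) and SNHG6 (91.4, 83.2 to 100.2) followed and did not differ beyond their counting intervals. SNHG1 had 44.2 CPM per kilobase. GAS5 (35.9), SNHG8 (32.3) and SNHG5 (28.5) came next, with neighbours in that order whose intervals overlap. NEAT1 had 22.3 CPM per kilobase, SNHG12 18.6 and SNHG15 6.84, each apart from its neighbour.

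In the reconstituted average ZFAS1 again came first, with 126.2 CPM per kilobase of the longest transcript, and MALAT1 had 49.4. GAS5 had 45.5 CPM per kilobase and lay above SNHG6 (36.1) and SNHG8 (31.9), whose intervals overlap. SNHG1 (24.8 CPM per kilobase), SNHG5 (15.3), NEAT1 (12.5), SNHG12 (9.13) and SNHG15 (5.17) followed in that order. The first 2 and the last 3 places were thus held by the same genes in both averages, SNHG5 was seventh both times, and SNHG1, SNHG6, SNHG8 and GAS5 changed places. Set against all genes with a length, ZFAS1 was at the percentiles 96.3 and 95.9 on the per-kilobase scale, MALAT1 at 94.2 and 88.6, NEAT1 at 70.6 and 60.5 and SNHG15 at 35.0 and 37.1. Here too the gene list of the second fit reaches lower levels.

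The place of a gene depended on the length used. The longest transcript keeps an intron in GAS5, SNHG1 and SNHG12. Without retained introns GAS5 moved from 35.9 to 60.5 CPM per kilobase and SNHG1 from 44.2 to 82.3 in the first average, and SNHG12 moved from 18.6 to 19.9. In the second average GAS5 then had 76.8 CPM per kilobase and lay above MALAT1 (49.4). With all exons merged, MALAT1 (95.8 CPM per kilobase) lay above ZFAS1 (70.2) in the first average, with intervals that do not overlap, and below it in the second (48.7 against 60.5). With the median transcript, which is 480 bases in MALAT1 and 3147 bases in NEAT1 because the annotation also lists shorter transcripts of these RNAs, MALAT1 came first in both averages. With the shortest transcript MALAT1 came first and NEAT1 second in both.

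**Figure D2:**
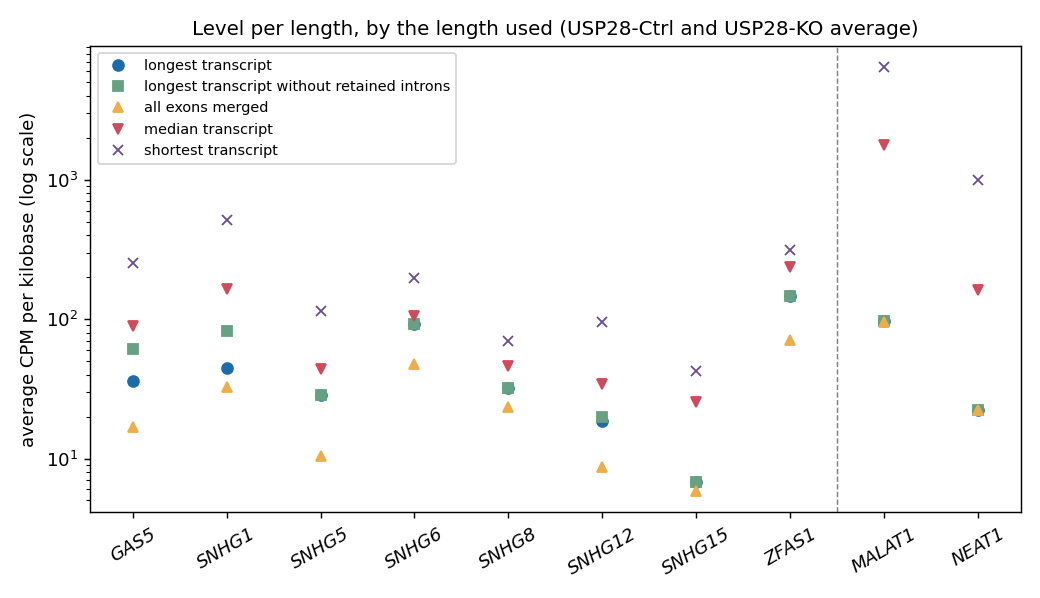
Average CPM per kilobase (y axis, log scale) of each gene over USP28-Ctrl and USP28-KO, by the transcript length used as divisor (symbols); symbols that coincide hide each other. MALAT1 and NEAT1, right of the dashed line, move most with the length, while ZFAS1 is the highest host with the longest transcript, at 146.5.

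Summed as classes, the 8 hosts had 509.8 CPM and MALAT1 with NEAT1 1353 CPM over USP28-Ctrl and USP28-KO, a ratio of 2.65 in reads (95% counting interval 2.56 to 2.75). Over the reconstituted cells the sums were 376.4 and 714.7 CPM and the ratio 1.90 (1.86 to 1.94). The ratio of sums was lower in the second average beyond counting error, and both sums were lower. The direction turned with medians in place of sums, where the classes differed by 3.80 log2 CPM in the first average and 3.97 in the second. MALAT1 alone had 1.66 times the reads of the 8 hosts in the first average and 1.14 times in the second, and NEAT1 alone 0.995 times and 0.756 times. Hosts made up 0.0510% and 0.0376% of all reads counted, and MALAT1 with NEAT1 0.135% and 0.0715%. Per kilobase of the longest transcript the ratio turned round. The hosts summed to 404.3 CPM per kilobase and MALAT1 with NEAT1 to 119.5, a ratio of 0.295 in the first average, and to 294 and 61.9, a ratio of 0.211, in the second. With the median transcript as the length it was 2.58 in the first average and 1.78 in the second.

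The averages of the fits can be set beside each other only as a description. They were normalized separately, differ in depth, average different groups and hold USP28 at very different levels, so that experiment, vector, clone and USP28 status cannot be told apart. In bulk RNA, fewer cells with a transcript and less of it per cell cannot be told apart either. Over the 10976 shared genes the reconstituted average minus the USP28-Ctrl and USP28-KO average had a median of -0.12 in log2 units and a 25th to 75th percentile of -0.50 to 0.20, and 59.9% of genes had a lower value in the reconstituted cells.

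Beside this, 7 of the 8 hosts and both nuclear RNAs had a lower value in the reconstituted average. The difference was lowest for SNHG6, at -1.34 log2 (counting interval -1.51 to -1.17), with 3.88% of shared genes below it. SNHG12 (-1.03), SNHG5 (-0.90) and SNHG1 (-0.84) were also below the 25th percentile of genes. MALAT1 had -0.98 (-1.02 to -0.93) and NEAT1 -0.83 (-0.89 to -0.78), at the percentiles 9.52 and 12.8. SNHG15 (-0.40) and ZFAS1 (-0.22) lay within the 25th to 75th percentile. SNHG8 was at -0.018, with an interval of -0.26 to 0.23 that includes 0 and a sign that turned, to 0.10, when the median of all shared genes was subtracted.

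GAS5 had the opposite sign to the other 7 hosts in the values as deposited, with 0.34 (0.20 to 0.49) at the percentile 84.2. The median was -0.62 for the 8 hosts and -0.90 for MALAT1 and NEAT1. The hosts did not form one block in this difference. They reached from the percentile 3.88 (SNHG6) to 84.2 (GAS5), and MALAT1 and NEAT1 fell inside that range. Hosts with a run of at least 5 pyrimidines at the RefSeq start were at -1.03 (SNHG12), -0.90 (SNHG5) and -0.22 (ZFAS1). Those with shorter runs there were at -0.84 (SNHG1), -0.018 (SNHG8) and 0.34 (GAS5). The RefSeq start of GAS5 lies 163 bases upstream of the outermost GENCODE start, so its place among shorter runs is uncertain. The starts of the other hosts named here lie inside theirs, by 15 bases (SNHG5) to 1259 bases (SNHG12). SNHG8 had a run of 6 within 10 bases of its start. The division by run length is therefore uncertain for these hosts too.

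**Figure D3:**
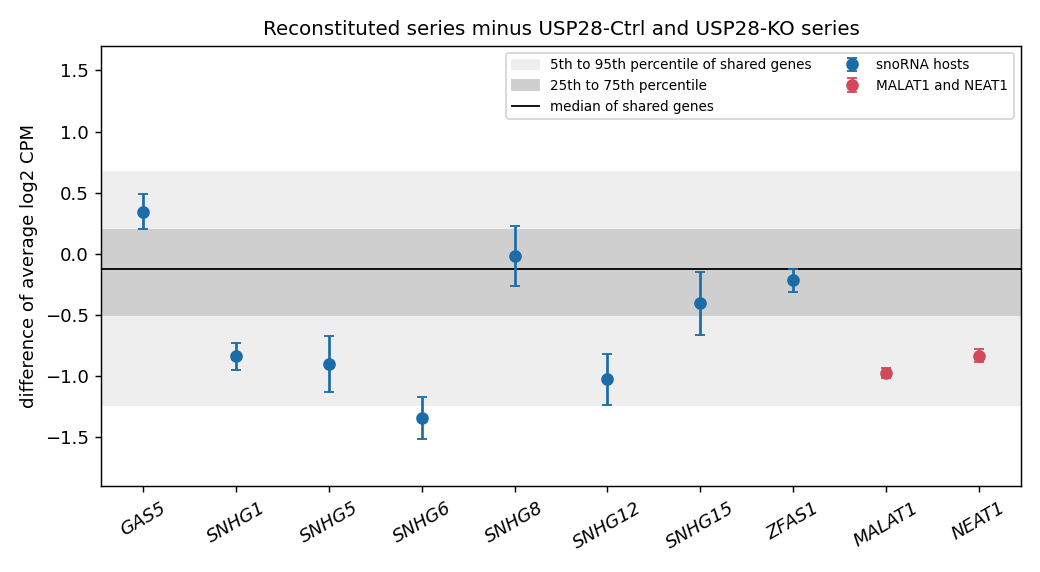
Difference of average log2 CPM, reconstituted series minus USP28-Ctrl and USP28-KO series (y axis), for the hosts (blue) and MALAT1 and NEAT1 (red), with 95% counting intervals as bars. The dark band holds the 25th to 75th percentile of the 10976 shared genes, the light band the 5th to the 95th percentile and the line their median of -0.12; GAS5 alone lies above the dark band, and SNHG6 below the light one.

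Other genes of the same pathways give the surroundings of these values. How many of them were listed cannot be compared with the genes above, which were chosen with earlier results of these data known. Of 20 further noncoding snoRNA hosts, 13 were listed in both fits, and 12 of these had a lower value in the reconstituted average (median difference -0.38 log2). Their averages ran from 2.81 log2 CPM (SNHG10) to 9.19 (SNHG29) over USP28-Ctrl and USP28-KO. SNHG11 (3.78) was second from the bottom and SNHG16 (7.09) second from the top. Protein-coding snoRNA hosts, which are ribosomal protein and translation factor genes for the most part, had a median difference of 0.084, with 6 lower and 10 higher of 16, and high levels in both fits (medians 9.85 and 10.04 log2 CPM). The highest of them were HSPA8 (11.16) and NCL (11.13) in the first fit, and the lowest EIF4A2 (6.79) and EEF1B2 (8.40). Of 12 other long noncoding RNAs, 8 were listed in both fits and all 8 had a lower value in the reconstituted average (median -0.49). NORAD (8.86 log2 CPM), which binds PUMILIO proteins, and TUG1 (7.43) had the highest averages of these in the first fit, and JPX (2.73) and FTX (4.71) the lowest.

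The factors that act on the host RNAs were listed throughout. All 14 genes of nonsense-mediated decay were present, at medians of 6.65 and 6.67 log2 CPM, and 7 had a lower and 7 a higher value in the reconstituted average (median difference -0.046). SMG5 (7.48) and SMG1 (7.42) had the highest averages in the first fit, and SMG8 (4.98) and MAGOH (5.80) the lowest. The 8 core proteins of snoRNA particles had medians of 7.45 and 7.22 log2 CPM, with NOP56 (8.67) and FBL (7.77), the methyltransferase of C/D box particles, at the top and GAR1 (5.71) and NOP10 (5.72) at the bottom. Their median difference was -0.21, with 5 lower and 3 higher. The 7 paraspeckle proteins, which NEAT1 gathers, had medians of 9.29 and 8.84 log2 CPM. HNRNPK (9.59) and NONO (9.56) were highest and PSPC1 (5.29) and RBM14 (6.81) lowest in the first fit, and 4 of 7 had a lower value in the reconstituted average (median difference -0.042).

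Few of the small nucleolar RNAs themselves were listed. Of the 32 within the 8 hosts, 5 had a row in any table. SNORD22, within SNHG1, was the only one in both fits, at 3.14 and 1.30 log2 CPM. SNORD80 (2.81), within GAS5, was listed in the first fit only. SNORD47 (1.16) and SNORD76 (0.83), within GAS5, and SNORA61 (1.61), within SNHG12, were listed in the second only. Reads from an unspliced host intron and reads from the small RNA share these bases and cannot be told apart.

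Overlap with genes on the opposite strand touches some members. The exons of MALAT1 share 396 bases with AP000769.2, those of SNHG6 365 bases with MCMDC2, those of GAS5 42 bases with GAS5-AS1 and those of SNHG12 8 bases with TRNAU1AP. The library kit is named as NEBNext Ultra II RNA in the labels and NEBNext Ultra RNA in the study's methods, in neither case as the directional version, and a kit that does not mark strand leaves reads of such overlaps impossible to tell apart. The sources used here do not state whether counting used strand. They also do not state whether RNA was selected by poly(A) tail or by removal of ribosomal RNA. That choice bears on MALAT1 and the longest transcript of NEAT1, whose main 3′ ends carry no classical poly(A) tail. The label of a hepatocellular carcinoma line was checked against marker genes. Of 10 hepatocyte markers 1 was listed in the first fit (FGB, 6.0 log2 CPM) and 2 in the second (FGB, 3.20, and SERPINA1, 1.88), and ALB, APOA1, AFP and HNF4A were not listed. All 7 mesenchymal markers were listed, led by VIM (11.71 and 11.69) and AXL (9.48 and 9.60). Of 4 leukocyte markers CD68 alone was listed (6.86 and 7.73), and none of 3 endothelial markers was.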

How the data were processed

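RNA was sequenced from HLF cells of 5 groups, with 1 sample listed per group and the number of libraries not given in the sources used here. According to the submitters' processing notes, reads were handled with bcl2fastq (2.20), STAR (2.5.4) and edgeR (3.26.8) and the build was hg19. The counting tool, the use of strand and the filter on low genes are not given in the sources used here. The deposited data are 3 tables of comparisons by the authors. The log2 values used here are the average log2 CPM per gene that the authors deposited, a pooled value over the libraries of a fit, on which their software adds a small prior count. Averages in the USP28-WT table and the USP28-M table were identical (0 genes differ), so both count as 1 fit. The other columns hold the authors' log2 fold changes, F statistics, p-values and adjusted values and were not used. The number of unmatched per-sample columns was 0.

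CPM was 2 to the power of the deposited log2 value. The reads behind a value came from the CPM of 1 read. It was found as the largest step near the best periodic fit to the CPM of the lowest 10% of genes. The step finder was tested on simulated counts divided by a known total, whose values lie on whole reads by construction. The averaging by the authors' software was not simulated, so the test does not settle the depth of the deposited values. With a common offset removed, 96.6% of the lowest 10% of genes in the first fit fell within 0.1 read of a whole number of steps, and 66.3% in the second. The second depth is therefore less certain. Levels were divided by the longest GENCODE 29 transcript (GRCh38, not the build of the reads; 97.1% and 95.9% of genes had a length), and small nucleolar RNAs and promoters came from RefSeq. No coordinate was taken from the tables. Alternatives were other transcript lengths, the other fit, filters at log2 CPM 3, centring on shared genes and other windows. Scripts ran in Python 3.11.15 with scipy 1.17.1 and pandas 2.3.3, and figures were drawn with matplotlib 3.10.9.

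The 10 genes are all named, and lists are given by counts, range and the highest and lowest 2 members in a fit. Members and lists were chosen with earlier results of these data known. The promoter motif searches, the run from the first base, the lengths without retained introns and the spread of the hosts were added after the data had been seen. One opposite-strand overlap is not reported here.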

Additional observations from a re-analysis of the deposited data

How the results depend on the processing

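The ratio of reads of MALAT1 plus NEAT1 to the 8 hosts was 2.65 over USP28-Ctrl and USP28-KO, 1.90 over the reconstituted cells, 1.66 with MALAT1 alone and 0.995 with NEAT1 alone. As a difference of the class medians of log2 CPM it was 3.80 in the first average and 3.97 in the second, the opposite direction to the sums. Per kilobase of the longest transcript it was 0.295, and 0.211 over the reconstituted cells. It was 0.255 without retained introns and 0.548 with all exons merged, and it turned to the other side of 1 with the median transcript (2.58) and the shortest transcript (4.65). Percentiles of the 10 genes in the first average moved by less than 1 point when genes without a symbol were left out. In the second average some moved by more, such as SNHG5 from 33.0 to 31.8 and SNHG6 from 42.9 to 41.8. The reads behind each value moved by less than counting error with the lowest 5% of genes as the base of the depth. Centring the difference between the averages on all shared genes shifts every gene by the same amount. That shift went beyond counting error in 4 of 10 genes (SNHG1, ZFAS1, MALAT1 and NEAT1), those with the most reads in the first fit. The count thus reflects read number, and the sign turned only for SNHG8. A filter at log2 CPM 3 moved the percentiles of 7 of 10 genes by at least 1 point in the first average. In the second average the shifts were larger for the genes with few reads, such as SNHG5 from 33.0 to 17.0 and SNHG8 from 40.4 to 26.1. MALAT1 moved little there, from 97.2 to 96.5. A window of 10 bases on either side of the start moved the longest run in 4 of 8 promoters. No paired analysis was possible because the values used are 1 pooled average per fit, and for the same reason no replicate could be left out. The depth of about 7690000 reads in the first fit limits SNHG8 and SNHG15 most.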
